A study of Homo sapiens with 2 samples.

Results

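The kinetochore, centromere and mitotic kinesin genes of A549 cells, a human lung adenocarcinoma line, were followed from monolayer into spheroid culture. The set was a list of named genes, chosen with earlier results of these data known. It held 39 genes, 38 of them with a probe set naming no other gene, out of 19775 genes measured. They were 12 genes of the inner centromere, 3 CENP-A loading factors, 11 of the outer kinetochore, 12 mitotic kinesins and CENPJ, a centriole protein listed under its current symbol CPAP. CENPP could not be read, since no probe set named this gene alone. The monolayer was kept attached for 12 days, fed with DMEM holding 10% FBS. The spheroids floated for 12 days in DMEM/F12 that lacked serum and held N2, 20 ng/ml of EGF and bFGF at 10 ng/ml, which means that attachment, medium, serum and growth factors differ together and cannot be told apart. RNA of each culture went onto 1 Affymetrix Human U133 plus 2.0 array. With 1 array per culture there is no replicate check, no test was run and no p-value is given.

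A kinetochore is the protein plate that is built on each centromere and ties the chromosome to spindle microtubules. The histone variant CENP-A marks the site, the constitutive centromere-associated network sits on it through the whole cell cycle, and the outer kinetochore with its NDC80 complex is added for mitosis to grip microtubules. Mitotic kinesins are motors that set up the spindle, move chromosomes and finish cell division. Many of these genes are transcribed mainly in G2 and mitosis, so their RNA is known to follow the share of dividing cells in a culture.

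Signals were linear intensities scaled by the authors. Values under each array's median, 108 in monolayer and 119 in spheroid culture, were raised to it as a floor, and a ratio with spheroid culture at the floor is a bound, written "at least". A hepatoma line and a compound are named in the description field of each sample, whereas title, cell line label and methods give A549. Of 16 genes typical of A549 (epithelial keratins and NRF2 targets), 15 had a probe set and all 15 exceeded the floor on both arrays, with summed signals of 461700 (monolayer) and 449185 (spheroids). KRT7 was 3.75-fold lower in spheroid culture on the probe set used, with 2 of its 3 probe sets above the floor lower. KRT19 was 4.64-fold higher. Of 7 measured alveolar type II markers, 2 exceeded the floor on the monolayer array and 5 on the spheroid array, summing to 1199 and 1999.7, with NKX2-1 at the floor in both. NAPSA and SFTPC were at least 2.52-fold and at least 2.03-fold higher. Of 20 hepatocyte and hepatoma markers, 10 exceeded it on the monolayer array and 15 on the spheroid array, summing to 5879 and 19576, with ALB at least 42.9-fold and APOH 8.85-fold higher. Of 14 measured fibroblast, leukocyte and endothelial markers, 5 and 4 were above the floor, summing to 2234 and 1883, and CD14 was at least 3.66-fold lower. No marker had a signal of exactly 0. The ratio of the 3' to the 5' control probe set was 1.09 in monolayer and 1.15 in spheroid culture for GAPDH, and 1.55 and 1.99 for ACTB. The part of these marker and RNA quality differences in the results given here was not tested.

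Nearly the whole set was lower in spheroid culture, mostly by several fold. Because the members were chosen with earlier results of these data known, the shares of all genes beside the counts are no test. Among 19 measured kinetochore genes outside the set, 6 were at least 2-fold lower. Of 38 genes, 37 were lower by any amount, where 47.2% of 13229 genes above the floor were. At least 2-fold lower were 34, against 5.5% of all genes, and at least 3-fold lower were 27, against 2.11%. At least 5-fold lower were 21, against 0.952%, and at least 8-fold lower were 11, against 0.454%. By contrast 1 gene was higher by any amount, where 52.8% of all genes were. At least 1.5-fold lower were 35, against 13.5%. The number at least 1.5-fold higher was 0, against 16.9% of all genes, and so it was 0 at the limits of 2-fold (6.86%), 3-fold (2.34%), 5-fold (0.779%) and 8-fold (0.348%). The median log2 ratio of spheroid over monolayer signal was -2.42 over the 38 genes and 0.04 over all genes above the floor. It was -2.71 over 11 inner centromere genes, -2.38 over the 3 loading factors, -2.47 over 11 outer kinetochore genes and -2.65 over 12 mitotic kinesins. All 38 genes exceeded the floor in monolayer, and 7 were at the floor in spheroid culture. Of the 100 genes with the lowest ratios on the arrays, 18 belonged to the set. The exceptions to a 2-fold difference were NSL1, KIFC1, CENPJ and CENPO. In RNA from a whole culture, a smaller share of dividing cells and less of this RNA per dividing cell cannot be told apart.

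**Figure D1:**
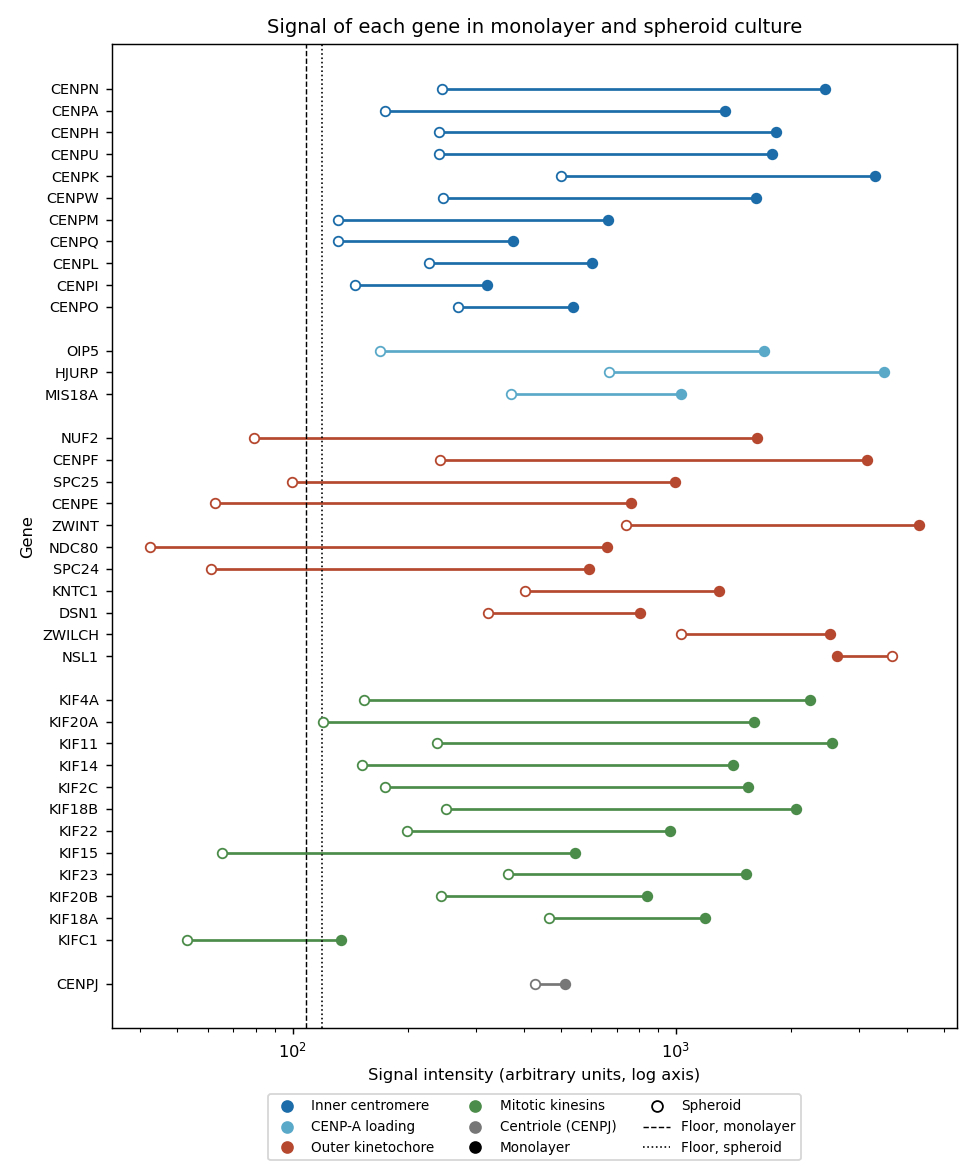
Signal intensity (arbitrary units, log axis) of each of the 38 genes in monolayer (filled) and spheroid culture (open), 1 array each, by group, with the floor of each array as a dashed or dotted line. Every open point lies left of its filled point except that of NSL1, and 7 open points lie under the spheroid floor.

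Genes of late cell cycle phases are known to be held off outside division through the cell cycle genes homology region (CHR, spelled TTTGAA), bound by the DREAM and MuvB complexes, and they often hold a CCAAT box, bound by NF-Y. RefSeq promoters of GRCh38.p14, from 250 bases before to 50 after the start, were held for 34 of the 39 genes, 38 promoters in all, and were searched on both strands. TTTGAA lay in 19 of 38 promoters of the set, or 50%, against 15.2% of 35116 promoters and 10.7% of those of genes above the floor. CCAAT lay in 25 of 38, or 65.8%, against 34.6%, and both motifs in 15 of 38, or 39.5%, against 5.9%. E2F sites, spelled TTCCCGC or in the other form TTGGCGC, lay in 10 of 38, or 26.3%, against 9.23% and, for genes above the floor, 12.9%. Some genes have several promoters in that table, which can overlap. Matches of different motifs overlapped in 0 cases. TTTGAA was densest at the start itself, with 19 of 21 matches within 60 bases of it, while 36 of 46 CCAAT matches lay in the 150 bases before it. By group, TTTGAA was held by 69.2% of 13 mitotic kinesin promoters, 54.5% of 11 outer kinetochore promoters and 27.3% of 11 inner centromere promoters. It was held by 3.45% of 29 promoters of transport and other kinesins. A match of letters is a description and not a measured binding site.

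To show the layout, the 150 bases just before the start are printed 5′ to 3′ for the gene of lowest ratio in each group among those with a CHR and a CCAAT box in that stretch, and for NSL1, the gene that was higher. Capitals mark matches of the CHR, the CCAAT box and the E2F site on either strand, and coordinates are those of GRCh38.p14.
CENPA, chr2:26785906-26786055, plus strand: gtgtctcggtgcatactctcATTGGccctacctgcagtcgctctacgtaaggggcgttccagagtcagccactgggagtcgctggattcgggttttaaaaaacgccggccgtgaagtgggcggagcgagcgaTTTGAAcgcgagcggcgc
HJURP, chr2:233854536-233854685, minus strand: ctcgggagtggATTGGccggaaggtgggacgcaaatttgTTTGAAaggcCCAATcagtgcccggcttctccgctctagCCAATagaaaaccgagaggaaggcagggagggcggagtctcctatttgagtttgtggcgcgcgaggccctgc
ZWINT, chr10:56361260-56361409, minus strand: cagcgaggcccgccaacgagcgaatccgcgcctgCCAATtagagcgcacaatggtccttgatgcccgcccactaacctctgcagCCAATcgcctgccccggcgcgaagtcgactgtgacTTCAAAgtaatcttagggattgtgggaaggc
KIF4A, chrX:70289954-70290103, plus strand: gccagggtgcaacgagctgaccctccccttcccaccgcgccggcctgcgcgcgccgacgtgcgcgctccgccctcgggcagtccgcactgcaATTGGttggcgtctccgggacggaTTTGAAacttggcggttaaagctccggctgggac
NSL1, chr1:212791778-212791927, minus strand: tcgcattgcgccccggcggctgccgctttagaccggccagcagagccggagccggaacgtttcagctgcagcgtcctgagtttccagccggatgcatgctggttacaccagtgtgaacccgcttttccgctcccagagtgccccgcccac
CENPA has a CCAAT box on the reverse strand and, close to the start, a CHR. HJURP has 3 CCAAT boxes around its CHR, ZWINT has 2 CCAAT boxes before a CHR on the reverse strand, and KIF4A has a CCAAT box on the reverse strand followed by a CHR. The stretch of NSL1 has 0 matches of any of these motifs. The other 4 were picked for holding both motifs, so the print does not compare lower genes with the rest. KIF20A and OIP5, 13.4-fold and 10.0-fold lower, had no TTTGAA in the searched promoters. KIFC1, at least 1.12-fold lower, and CENPO, just short of 2-fold lower, had it.

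The inner centromere genes were lower throughout, by 2.00-fold to 10.0-fold on the probe sets used. CENPA, the histone H3 variant that marks the centromere and whose stretch with a CHR is printed here, gave a signal of 1342 in the monolayer and 174 in the spheroids, 7.70-fold lower. CENPN, which reads the CENP-A nucleosome, had 2455 and 245, 10.0-fold lower on the probe set used and 2.98-fold lower on a second one above the floor on both arrays (1174 and 394). Its partner CENPL had 605 and 227, 2.67-fold lower, so a difference between these partners rests on the probe set. In the CENP-HIKM complex, which bridges the inner centromere to the rest of the network, CENPH had 1825 and 241 (7.57-fold lower), and CENPK had 3299 and 501 (6.59-fold lower). CENPM, a small GTPase-like subunit, had 663 and 131, 5.06-fold lower. CENPI, the large scaffold subunit, had 322 and 145, 2.22-fold lower, which is the least of these 4. In the CENP-OPQUR complex, CENPU, a docking site for the kinase PLK1, had 1783 and 241 and was 7.39-fold lower. CENPQ, a microtubule-binding subunit, had 374 and 131, 2.86-fold lower. CENPO had 538 and 269.5, just short of 2-fold lower. CENPW, a histone-fold subunit, had 1617 and 247, 6.54-fold lower. CENPA and CENPH each rest on 1 probe set whose name ends in _x_at, a class that can pick up related transcripts.

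CENP-A is loaded onto centromeres after mitosis by a small set of factors, and all 3 in the set were lower. HJURP, the chaperone of CENP-A, had 3491 in the monolayer and 669.9 in the spheroids, 5.21-fold lower. OIP5, also called MIS18B, had 1693 and 169, 10.0-fold lower. MIS18A, its partner in the complex that licenses loading, had 1032 and 369.98, 2.79-fold lower. OIP5 and MIS18A work in 1 complex, and their log2 ratios were -3.33 and -1.48.

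The outer kinetochore held the NDC80 complex, whose 4 subunits were all under the floor in the spheroids, and the MIS12 complex, where NSL1 was higher. NDC80, the microtubule-binding subunit, had 659 in the monolayer and 42.4 in the spheroids, at least 5.53-fold lower. NUF2, its coiled-coil partner, had 1628 and 79.0, at least 13.7-fold lower. SPC25 had 995 and 99.7 and SPC24 had 594 and 61.1, at least 8.35-fold and at least 4.99-fold lower. These 2 subunits anchor the complex to the inner side. DSN1 and NSL1 are subunits of the MIS12 complex, the platform on which NDC80 stands. DSN1 had 807 and 324, 2.49-fold lower. NSL1 had 2627 and 3669.6, 1.40-fold higher on the probe set used, and was the 1 gene of the set that was higher. Its log2 ratio of 0.48 is within the SD of 0.55 of the difference between a gene's brightest 2 probe sets. ZWINT, a partner of KNL1 that helps bring in the checkpoint complex RZZ, had 4306 and 739.6, 5.82-fold lower. KNTC1, the ROD subunit of RZZ, had 1293 and 403, 3.21-fold lower. ZWILCH, another RZZ subunit, had 2515 and 1033, 2.44-fold lower. CENPF, a large protein of the outer plate, had 3145 and 242, 13.0-fold lower. A second CENPF probe set above the floor on both arrays had 766 and 189, 4.06-fold lower. CENPE, itself a kinesin that carries chromosomes to the spindle middle, had 764 and 62.6, at least 6.41-fold lower.

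When the other measured subunits of these complexes, named here after their values were seen, are set beside the members, several complexes were lower as a whole and others were split. The KNL1 scaffold had 799 in the monolayer and 52.8 in the spheroids, at least 6.71-fold lower, and ITGB3BP, the CENP-R subunit, had 3053 and 756, 4.04-fold lower. The 3 SKA genes, whose complex steadies microtubule ends, had log2 ratios of -1.84 (SKA3), -1.69 (SKA1, a bound) and -1.51 (SKA2). In contrast to CENPW at -2.71, its partners CENPT and CENPX had -0.21 and -0.38. CENPT gave dim signals of 171 and 147, near the floors of 108 and 119, so no large drop could be read for it. CENPX had 3583 and 2744. CENPC, which links CENP-A to the MIS12 complex, had -0.63, also on dim signals of 280 and 182. MIS12 and PMF1 had 0.00 and -0.29, against -1.32 for DSN1. ZW10, which also acts in membrane traffic, had 0.60, against -1.68 and -1.28 for its RZZ partners. SPDL1, the dynein adaptor Spindly, had -0.51. Of 19 measured kinetochore genes outside the set, 6 were at least 2-fold lower and 0 higher, against 5.5% and 6.86% of all genes. The median log2 ratio of the 19 was -0.60. At a 75th percentile floor 3 of 16 were at least 2-fold lower.

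**Figure D2:**
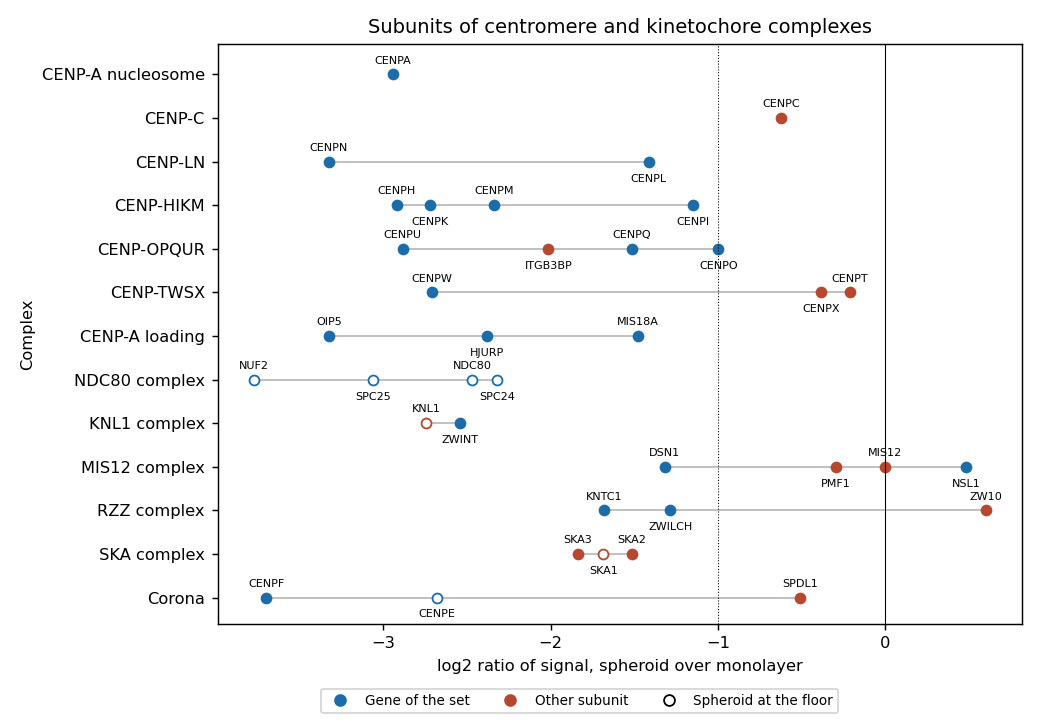
Log2 ratio of spheroid over monolayer signal (horizontal axis) for each measured subunit of the centromere and kinetochore groups, with genes of the set in blue, other subunits in red and open points where spheroid culture was at the floor. NDC80, KNL1 and SKA subunits all lie left of the dotted 2-fold line, while the MIS12, RZZ, CENP-TWSX and CENP-OPQUR complexes and the corona group straddle it, CENP-OPQUR only by CENPO.

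Among the mitotic kinesins, 11 of 12 were at least 2-fold lower, against 5.5% of all genes, and 6 at least 8-fold lower, against 0.454%. KIF4A, a chromokinesin that shapes chromosomes and the central spindle, had 2238 in the monolayer and 154 in the spheroids, 14.6-fold lower. That was the lowest floored ratio of the set. Without a floor NUF2 and NDC80, given here as bounds, had lower log2 ratios (-4.37 and -3.96) than KIF4A (-3.86). KIF20A, which brings the passenger complex to the central spindle, had 1598 and 119.7, 13.4-fold lower, with the spheroid signal just above the floor. KIF11, the kinesin-5 that pushes spindle poles apart, had 2547 and 238, 10.7-fold lower. KIF15, a kinesin-12 that can stand in for KIF11, had 546 and 65.4, at least 4.58-fold lower. KIF14, a motor of cytokinesis, had 1409 and 151, 9.31-fold lower.

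KIF2C, which takes microtubules apart at kinetochores, had 1543 in the monolayer and 174 in the spheroids, 8.88-fold lower. The kinesin-8 motors KIF18B and KIF18A, which limit microtubule length, went to different depths. KIF18B had 2053 and 251, 8.17-fold lower, and KIF18A had 1188 and 466, 2.55-fold lower. KIF22, a chromokinesin of chromosome arms, had 963 and 199, 4.85-fold lower. KIF23, the motor of the centralspindlin complex, had 1526 and 364, 4.20-fold lower, on 1 of its 2 probe sets. KIF20B, a further cytokinesis motor, had 839.9 and 243, 3.46-fold lower. KIFC1, a minus-end motor that bundles spindle poles, had 134 and 52.9, at least 1.12-fold lower, and its monolayer signal was so near the floor that no larger difference could be read.

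CENPJ bears a centromere name but builds centrioles, and it had 514 in the monolayer and 429 in the spheroids, 1.20-fold lower. That is within the same SD of 0.55, taken over 6444 genes.

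Kinesins that work outside mitosis lay near 0. Of 29 such genes, 23 were above the floor, with log2 ratios from -0.82 to 0.97. At least 2-fold lower were 0, against 5.5% of all genes, and at least 2-fold higher 0, against 6.86%. Among 23 genes a count of 0 is near these shares. The median of the 23 was 0.14, and its sign depends on scaling and floor. It was -0.0037 after division of both arrays by their medians. Without a floor it was -0.06, and 2 of 29 were at least 2-fold lower. The mitotic kinesins ran from -3.86 to -0.17, and only KIFC1 fell inside the range of the others. Its -0.17 is a bound set by the spheroid floor, with a monolayer signal of 134, so its place there was not measured. These are 2 lists on the same arrays, and no test of the difference was run.

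Other genes of cell division were lower too. Of 31 other G2 and mitosis genes above the floor, 29 were at least 2-fold lower, with a median log2 ratio of -3.29, and CDC20, the activator of the anaphase-promoting complex, and PTTG1, securin, were at least 25.3-fold and 22.5-fold lower. MKI67, the proliferation antigen Ki-67, named after its value was seen, had 2105 in the monolayer and 278 in the spheroids. Of 32 G1/S and replication genes, 27 were at least 2-fold lower, with a median of -1.88. RRM2, a ribonucleotide reductase subunit, was 12.6-fold and MCM10, a replication factor, 9.46-fold lower. Of 11 reference genes 1 was at least 2-fold lower (HPRT1, 2.32-fold), against 5.5% of all genes, and their median was -0.24. The promoters of these lists differed in TTTGAA and E2F sites. TTTGAA lay in 61.5% of 39 promoters of other G2 and mitosis genes and in 2.7% of 37 G1/S promoters. E2F sites lay in 20.5% and 62.2% of them. CCAAT was held about equally, by 61.5% of the G2 and mitosis promoters and 62.2% of the G1/S promoters. It was held by 50% of 10 promoters of reference genes.

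**Figure D3:**
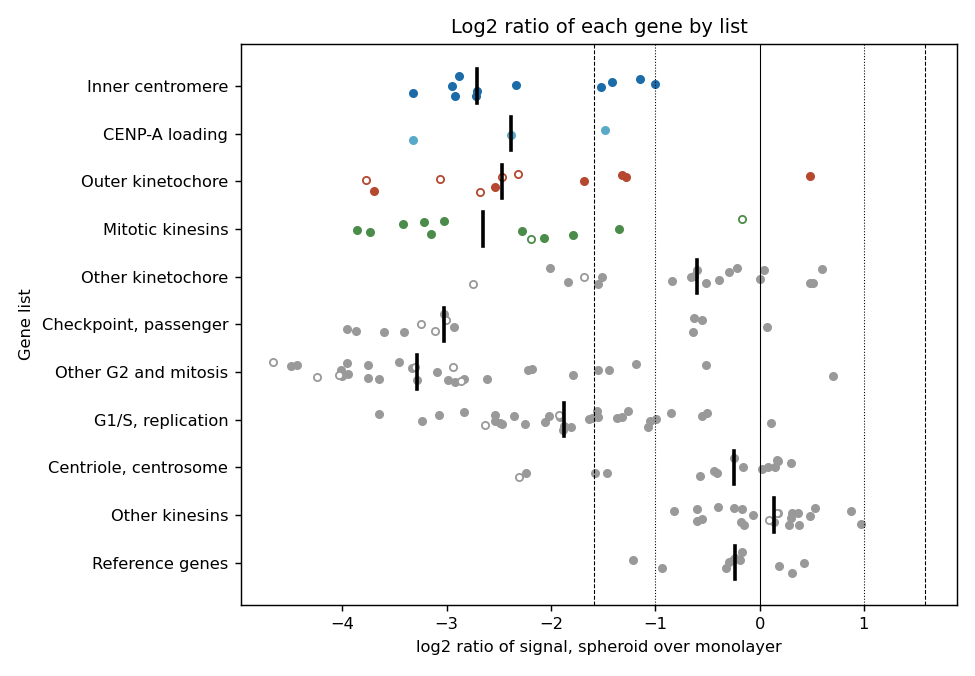
Log2 ratio of spheroid over monolayer signal (horizontal axis) of every gene above the floor on either array, by gene list, each point being 1 gene, open where either culture was at the floor, with the list's median as a bar. Dotted and dashed lines mark 2-fold and 3-fold, and the medians of the 4 groups of the set lie left of those of the other kinesins and the reference genes, with NSL1 and KIFC1 as the points farthest right in their groups.

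Where a gene of the set had several probe sets, they mostly pointed the same way but not to the same depth. Of 65 probe sets, 57 were above the floor on either array, 54 of them lower and 3 higher. Of 15 genes with at least 2 such probe sets, 13 had all of them lower. In 11 of the 15 the probe set used had the lowest floored ratio of the gene. For a dimmer probe set at the spheroid floor, as in CENPU, KIF20B, CENPO and the dimmest of MIS18A, the floor caps that ratio by construction. Other genes had a second probe set above the floor on both arrays, which is not capped. There the probe set used gave the larger fold for CENPN, CENPF, KIF2C, KIF22, CENPL, MIS18A and CENPJ, and the smaller for ZWILCH. KIF22 had a second probe set above the floor on both arrays, with 383 and 135, 2.84-fold lower against 4.85-fold. The log2 ratios of the brightest 2 differed with an SD of 1.07 over these 15 genes, against 0.55 over 6444 genes, with floored ratios in both. KIF14 had a second probe set with 1643 in the monolayer and 100.4 in the spheroids, a lower ratio than on the one used. For CENPU the other probe sets were dim, with 213 and 38.7 on one and 146 and 78.9 on the other, and both lay under the spheroid floor, so they bound the difference only at 1.78-fold and 1.22-fold lower or more. KIF23 had a second probe set with 240.4 and 289.7, higher in spheroid culture, so its direction depends on the probe set. NSL1 had 2 further probe sets, with 398 and 281 (lower) on one and 212 and 295 (higher) on the other. The other 23 measured genes had 1 probe set above the floor.

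**Figure D4:**
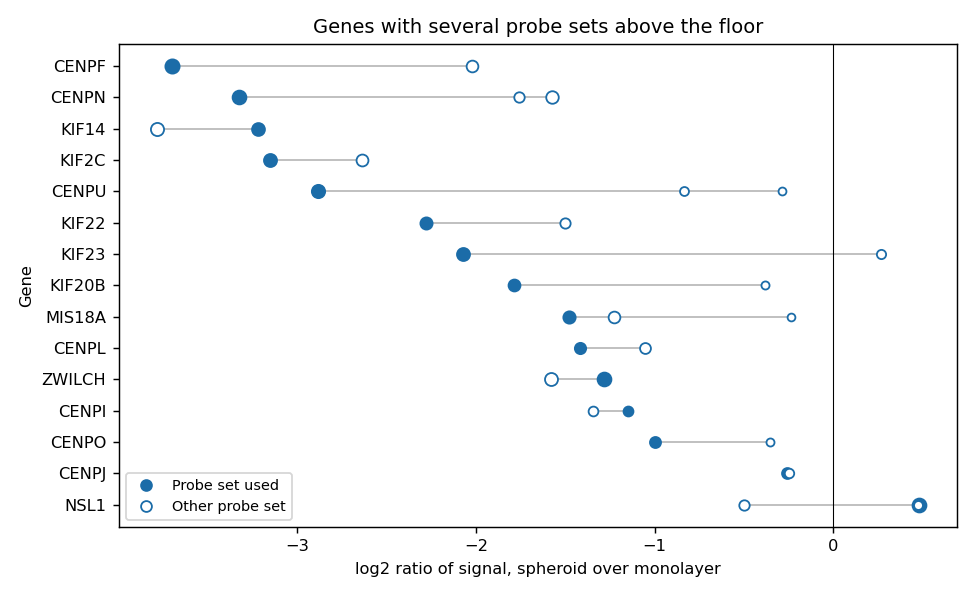
Log2 ratio of spheroid over monolayer signal (horizontal axis) of each probe set above the floor for the 15 genes with several, the filled point being the probe set used and point size growing with monolayer signal. Ratios with the spheroid signal under the floor, such as both open points of CENPU, are bounds. The probe sets of KIF23 and NSL1 lie on both sides of 0, those of the other 13 genes on the left.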

How the data were processed

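RNA of 1 A549 monolayer and 1 spheroid culture was measured on Affymetrix arrays. The intensities deposited by the authors are linear. MAS5 and GCOS appear in the submitters' processing notes, and the methods name GeneSpring GX for later analysis. Each array had a trimmed mean of 499.9 (2% taken off at either end). Samples were grouped by title. Probe sets were named by the platform annotation, and of 41097 that named 1 gene, 41043 had their symbol brought up to date through Entrez. Each gene was read from its probe set of highest mean log2 signal, floored at the array median (percentile 50, without 62 control probe sets). No test was run. Limits of 2-fold and 3-fold, the lists and the members were chosen with earlier results of these data known. Named are all members, up to 2 genes per direction of each list past 2-fold, and genes marked as named later. The grouping into complexes was also made later. Steps were tested on simulated data. Alternatives were other floors (none, percentiles 25 and 75), quantile normalization, division by the median, the geometric mean of probe sets, exclusion of _s_at and _x_at probe sets, and other fold limits. Protein sequences were not used here. Python 3.11.15, numpy 2.4.6, pandas 2.3.3 and matplotlib 3.10.9 were used. The number of arrays limits the precision.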

Additional observations from a re-analysis of the deposited data

How the results depend on the processing

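No paired analysis was possible because there was 1 array per culture. Over 7 alternatives, 36 of the 38 genes had a negative log2 ratio wherever one could be computed, and 22 were at least 2-fold lower there. Some of these genes gave no ratio in a setting, such as CENPI and CENPQ at a 75th percentile floor. The spread used to judge a shift was the SD between probe sets (0.55 for a gene, divided by the square root of the number of genes for a median), which holds no spread between cultures. Without a floor, and equally at a 25th percentile floor, the median log2 ratio of all members was -2.71, that of the outer kinetochore -3.28 and that of the mitotic kinesins -3.05. At a 75th percentile floor the medians were nearer to 0, since that floor caps how low a spheroid signal can be read. They were -1.45 for all members, -1.72 for the inner centromere, -1.02 for the outer kinetochore and -1.64 for the mitotic kinesins. At that floor 16 of 35 members were at least 3-fold lower, against 1.76% of all genes. The other G2 and mitosis genes and the G1/S genes then had medians of -2.18 and -1.40. Division of each array by its median gave -2.56 for all members and moved the median of all genes from 0.04 to -0.10. The geometric mean of probe sets gave -2.33 for all members and -2.22 for the inner centromere. Without _s_at and _x_at probe sets 29 members were left, 17 of them at least 3-fold lower, against 1.87% of all genes. The median of the inner centromere was then -1.52 and that of the mitotic kinesins -3.18. KIF23 turned to 0.27 and NSL1 to -0.50 in that setting, and the 1 member that was higher was then KIF23. The number of members at least 2-fold lower stayed between 23 of 35 and 35 of 38 over all alternatives. The share of all genes was 4.89% at the 75th percentile floor, which gave the 23, and 10.2% without a floor, which gave 35. At least 2-fold higher were 0 members under any alternative, against 4.7% to 13.2% of all genes. Signals near the floor limit how large a difference can be read for KIFC1 and for the genes given as bounds. In 19 members, the 7 at the floor included, the spheroid signal was under 2 times its floor. At a 75th percentile floor 25 of 35 members moved by more than the SD of 0.55, so their folds depend on the floor.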

Other observations

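The spindle checkpoint and chromosomal passenger genes, which act at the kinetochore, were split. Of 13 above the floor on either array, 9 were at least 2-fold lower and 0 higher, against 5.5% and 6.86% of all genes. The median log2 ratio of the 13 was -3.03. At a 75th percentile floor the median was -1.34 and 8 of 11 were at least 2-fold lower. AURKB and BIRC5, the kinase and the survivin subunit of the passenger complex, had signals of 2083 and 2554 in monolayer and of 134 and 175 in spheroid culture, 15.5-fold and 14.6-fold lower. BUB3, MAD1L1 and MAD2L1BP, named after their values were seen, had log2 ratios of -0.63, -0.55 and 0.07.

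Of 15 centriole and centrosome genes, the group in which CENPJ works, 4 were at least 2-fold lower and 0 higher. The shares over all genes were 5.5% and 6.86%, and the median log2 ratio of the 15 was -0.24. At a 75th percentile floor 1 of 11 was at least 2-fold lower. PLK4, the kinase that starts centriole duplication, had signals of 590.2 and 39.6 and was at least 4.95-fold lower, with 2 of its 3 probe sets above the floor lower. STIL, its partner, had 1037 and 219 and was 4.74-fold lower.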
